A study of Mus musculus with 2 samples.

Results

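T cells in which no CD8 transcript was counted made up 284 of the 6630 barcodes in a pair of single-cell RNA libraries from tumor-associated neutrophils (TANs), 17 from Smad3-WT and 267 from Smad3-KO tumors. The cells were chosen by their unique molecular identifiers (UMIs), each of which stands for 1 counted RNA molecule. A barcode was taken when it had at least 200 genes, more than 500 UMIs and under 10% mitochondrial UMIs. It also needed at least 1 UMI of Cd3e, Cd3d or Cd3g, at least 3 UMIs of these genes together with Trac, Trbc1 and Trbc2, and 0 UMIs of Cd8a, Cd8b1, Cd79a and Ms4a1. Barcodes with 3 or more UMIs of C1qa, C1qb and C1qc, 3 or more of Krt8, Krt18 and Rhox5, or 1% or more of their UMIs from S100a8 and S100a9 were left out, because these genes mark macrophages, carcinoma cells and neutrophils. The levels of the genes used by this rule are therefore a description of the choice.

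Both libraries came from subcutaneous tumors of LLC, a mouse lung carcinoma line, in C57BL/6 hosts aged 8 to 12 weeks. The hosts were wild-type (Smad3+/+, Smad3-WT) or Smad3-deficient (Smad3-/-, Smad3-KO), so each T cell carried the genotype of its host, and the comparison asks how the TME differs without host Smad3. Cells from 8 tumors per genotype were pooled and sorted for CD11b and Ly6G, surface proteins of neutrophils, before 1 library per genotype was made with a 5′ kit. With 1 library per genotype there is no replicate error, no test was made between the genotypes, and every interval below is at 95% and covers counting error only.

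T cells recognize antigen through the alpha-beta or gamma-delta T cell receptor, which signals through the CD3 chains. Helper T cells carry the coreceptor CD4, and cytotoxic T cells carry CD8. Naive T cells, which recirculate between blood and lymphoid organs, are kept in that state by factors such as LEF1 and TCF1 and home to lymph nodes with CCR7. Regulatory T cells depend on FOXP3, accumulate in many tumors and restrain other T cells, and TGF-beta, which signals through SMAD2 and SMAD3, takes part in their induction.

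The libraries stood apart in ways that bear on every comparison between them. For Smad3-WT there were 4116 barcodes with 23951400 UMIs, and for Smad3-KO 2514 barcodes with 4214290 UMIs. Among the T cells without CD8 UMIs, the median was 3413 UMIs and 1530 genes per cell in Smad3-WT (range 770 to 11815 UMIs) and 1289 UMIs and 638 genes in Smad3-KO (541 to 16439), with 77483 and 410171 UMIs in all. The deeper cells of the Smad3-WT library thus gave each gene more chances to be seen, while fewer of them were available.

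Ribosomal protein genes took 18.7% of the UMIs of these T cells in Smad3-WT and 31.4% in Smad3-KO. Xist, which is transcribed from the inactive X chromosome of females, had a UMI in 0 of 17 Smad3-WT cells, which, taken to allow 3 cells, limits the share to 17.6%, and in 113 of 267 Smad3-KO cells. Y-linked genes had a UMI in 9 of 17 and 2 of 267 cells, and no cell had both. The sex make-up of these T cells therefore differed between the libraries. The effects of sex, genotype and library cannot be told apart in any ratio between them. According to the paper, mice of both sexes were used, and the sex of each pooled host is not given. The libraries shared 73 barcode sequences, which included 0 Smad3-WT and 2 Smad3-KO cells described here.

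Several of the T cell barcodes also held transcripts of other cells, above all in Smad3-WT. At least 10 UMIs in each of 8 Smad3-WT and 9 Smad3-KO barcodes came from a list of 10 macrophage or monocyte markers. The Smad3-WT cells with such UMIs had a median of 6147 UMIs against 1620 in the others, and the Smad3-KO cells 3627 against 1273.5. The summed level of the list, in CPM (UMIs of a gene or list scaled to a common total), was 6001 in Smad3-WT and 1821 in Smad3-KO, Lyz2 took the most UMIs of it in both (222 and 343), and C1qb and C1qc were at 0 in Smad3-WT. These barcodes are called mixed below, and the main ratios between libraries are given with and without them. Several genes had under 20 UMIs without them, which leaves no ratio. Of the 23430 UMIs of the 9 Smad3-WT cells that were not mixed, 1 cell held 9542 (40.7%), and the ratios of the main lists are also given without it, a setting chosen after seeing the data. The summed level of 8 neutrophil markers, all of them counted in both libraries, was 1871 CPM in Smad3-WT and 451 CPM in Smad3-KO, led by S100a8 and S100a9, with 10 or more such UMIs in 6 and 7 cells. That of 8 dendritic cell markers was 3381 and 1909 CPM, led by Cd74, with 10 or more UMIs in 5 and 12 cells, and Xcr1 and Siglech were at 0 in both libraries. The ratios of these lists, 0.241 (0.193 to 0.302) and 0.565 (0.490 to 0.652), were 0.667 (0.393 to 1.22) and 1.06 (0.681 to 1.73) without the mixed barcodes, and the part of either list in other ratios was not tested. Of the gates used for the sort, Itgam (CD11b) had a UMI in 8 Smad3-WT and 10 Smad3-KO cells, and Ly6g in 0 and 1 cells.

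T cells without CD8 UMIs formed a larger share of the Smad3-KO library. They were 17 of 3902 cells past the quality filter in Smad3-WT (0.436%, Clopper-Pearson interval 0.254 to 0.697) and 267 of 2433 in Smad3-KO (10.97%, 9.76 to 12.3). CD8 T cells, chosen by the same limits with at least 1 CD8 UMI, were 18 (0.461%, 0.274 to 0.728) and 106 cells (4.36%, 3.58 to 5.25). B cells were 3 and 417 cells, and macrophages were 364 and 24 cells. Thus both T cell classes and the B cells were a larger part of the Smad3-KO library, and macrophages a smaller one. These are shares of cells sorted for surface proteins of neutrophils, so they do not measure how many T cells the tumors held. The part of the sort in them was not tested.

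**Figure D1:**
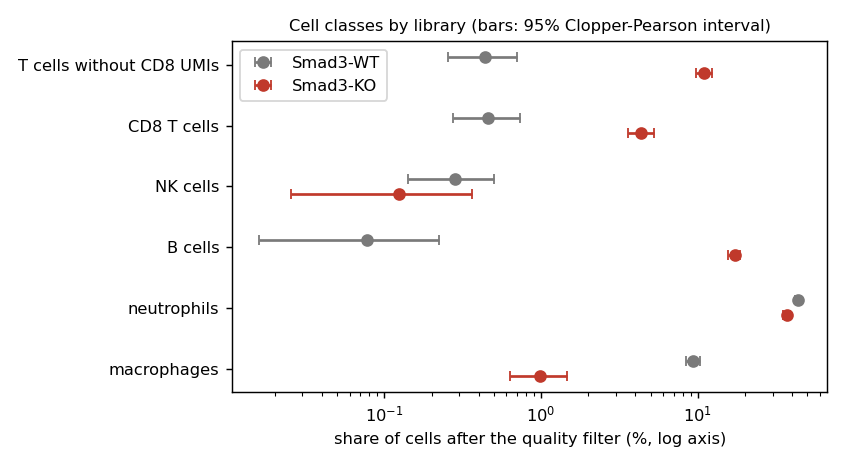
Share of cells past the quality filter (x axis, percent, log scale) in 6 cell classes (y axis), with 1 point per library and bars for the 95% Clopper-Pearson interval. T cells without CD8 UMIs sit at 0.436% in Smad3-WT and 10.97% in Smad3-KO, and their intervals do not overlap.

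Many cells lay near the limits of the rule. Exactly 3 T cell receptor and CD3 UMIs were held by 2 Smad3-WT and 45 Smad3-KO cells, and 0 and 26 further cells had exactly 2 and passed all other limits. On the other side of the CD8 limit, exactly 1 CD8 UMI was held by 1 of the 18 CD8 T cells of Smad3-WT and 31 of the 106 of Smad3-KO, with medians of 5 and 2 CD8 UMIs per CD8 T cell. How many cells without CD8 UMIs were CD8 T cells whose CD8 transcripts were missed was not tested. The limits on other cell types removed 8 and 57 T cells that had 0 CD8 UMIs.

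The label as T cells was checked on genes outside the rule, since Cd3e and Trac helped to choose the cells. Cd3e, a chain of the CD3 complex, had a UMI in 16 cells of Smad3-WT and 223 of Smad3-KO. Trac, the alpha chain constant gene, had a UMI in 9 and 101 cells. No UMI of Trac, Trbc1 or Trbc2 was held by 4 and 40 cells. Outside the rule, Lck, the kinase that starts T cell receptor signalling, had a UMI in 11 and 162 cells, and Lat, the adaptor it acts through, in 9 and 164 cells. They belong to a list of 12 T cell signalling genes, of which Themis had no UMI in Smad3-WT. Any of the 12 had a UMI in 17 of 17 and 262 of 267 cells. So did 11 of 11 Smad3-WT and 2 of 3 Smad3-KO NK cells, chosen by NK markers without Cd3 UMIs. In Smad3-KO, 95 of 417 B cells and 254 of 896 neutrophils also had one. Cd4 and Lef1, the other markers of the label, were less complete: Cd4 had a UMI in 4 of 17 and 63 of 267 cells and Lef1 in 4 and 148. The cells are therefore described as T cells without CD8 UMIs, and not as CD4 T cells.

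The summed level of 11 naive and recirculating genes was 852 CPM in Smad3-WT and 3062 CPM in Smad3-KO, a ratio of 3.59 (2.81 to 4.68) that became 2.75 (1.88 to 4.19) without the mixed barcodes and 2.32 (1.48 to 3.86) when the deepest remaining Smad3-WT cell was left out too. The share of cells with a UMI of any of them, 256 of 267 in Smad3-KO, is not particular to T cells, since 360 of 417 B cells and 650 of 896 neutrophils of that library had one. Lef1 (ENSMUSG00000027985, chr3:131110471-131224356, plus strand, mm10), a factor of naive T cells, had 6 UMIs in 4 of 17 Smad3-WT cells and 253 UMIs in 148 of 267 Smad3-KO cells. The share with a UMI was 23.5% (6.81 to 49.9) and 55.4% (49.2 to 61.5), or 3.90% and 28.6% when computed for every cell at 500 UMIs. In B cells and neutrophils of the Smad3-KO library, whose median depths were 1248 and 1066 UMIs, Lef1 had a UMI in 5 of 417 and 3 of 896 cells. The share in Smad3-KO T cells was thus far above that in cells that should lack Lef1, and it remained above the Smad3-WT share at equal depth.

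At the level of summed UMIs, Lef1 stood at 77.4 CPM in Smad3-WT and 617 CPM in Smad3-KO, a ratio of 7.97 (3.61 to 21.9). The level of Tcf7, which encodes TCF1, was 51.6 CPM (4 UMIs) and 273 CPM (112 UMIs), a ratio of 5.29 (2.01 to 19.8). The level of Ccr7, the homing receptor for lymph nodes, was 51.6 CPM (4 UMIs, all in 1 cell) and 271 CPM (111 UMIs in 76 cells), a ratio of 5.24 (1.99 to 19.6). S1pr1, the receptor through which T cells leave lymphoid organs, stood at 25.8 CPM (2 UMIs in 1 cell) and 256 CPM (105 UMIs in 80 cells), which is 9.92 times the level (2.68 to 83.0). All 4 genes were higher in Smad3-KO by more than the counting error, though each rests on 6 or fewer Smad3-WT UMIs.

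A gene was counted as past the fold when its ratio was at least 2 or at most 0.5 and its interval left out 1, and only genes with 20 or more UMIs over both groups entered. By this rule 5.49% of 3443 genes were higher in Smad3-KO and 11.3% were lower. Of the 11 naive and recirculating genes, all had 20 UMIs. Of these 9 were higher and 0 lower, and their median ratio was 4.85, against 0.925 over all genes tested. The 9 were Lef1, Tcf7, Ccr7, S1pr1, Klf2, Satb1, Foxp1, Bach2 and Dapl1. Il7r, the receptor for the survival cytokine IL-7, stood at 219 and 293 CPM, with an interval that held 1 (0.799 to 2.36). Klf2 and Foxp1 are also abundant in other cells of these libraries, with Klf2 in 46.5% of Smad3-KO neutrophils and Foxp1 in 48.0% of Smad3-KO B cells.

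Without the mixed barcodes, which left 9 Smad3-WT and 258 Smad3-KO cells, 1.70% of 2759 genes were higher and 6.52% lower, and 3 of the 11 naive genes remained higher, namely Lef1, Klf2 and Satb1. The median ratio of the list was 2.39 against 0.853 over all genes. When the deepest remaining Smad3-WT cell was left out too, 0.932% of 2681 genes were higher and 4.55% lower, and 1 of the 11 naive genes, Lef1, was higher. With only the mixed barcodes left out, Lef1 had 3 Smad3-WT UMIs and a ratio of 5.05 (1.71 to 24.6). Klf2 fell to 0 Smad3-WT UMIs there, at least 3.27-fold higher against a floor of 3 UMIs over the group. Without the deepest cell too, that bound was 1.94-fold, and Klf2 was past the fold in neither direction. Under the setting without mixed barcodes alone, the intervals of Tcf7 (2.29, 0.762 to 11.3) and Ccr7 (1.67, 0.633 to 6.23) held 1. Ccr7 turned to 0.981 in cells without any UMI of 9 genes of other cells (4 in Smad3-WT). The same list was also higher in the CD8 T cells of Smad3-KO, where 9 of its 10 genes with 20 UMIs passed the fold against a background of 6.08% of 2533 genes. In those cells the summed list had a ratio of 4.35 (3.35 to 5.73), a comparison added after the values were seen.

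**Figure D2:**
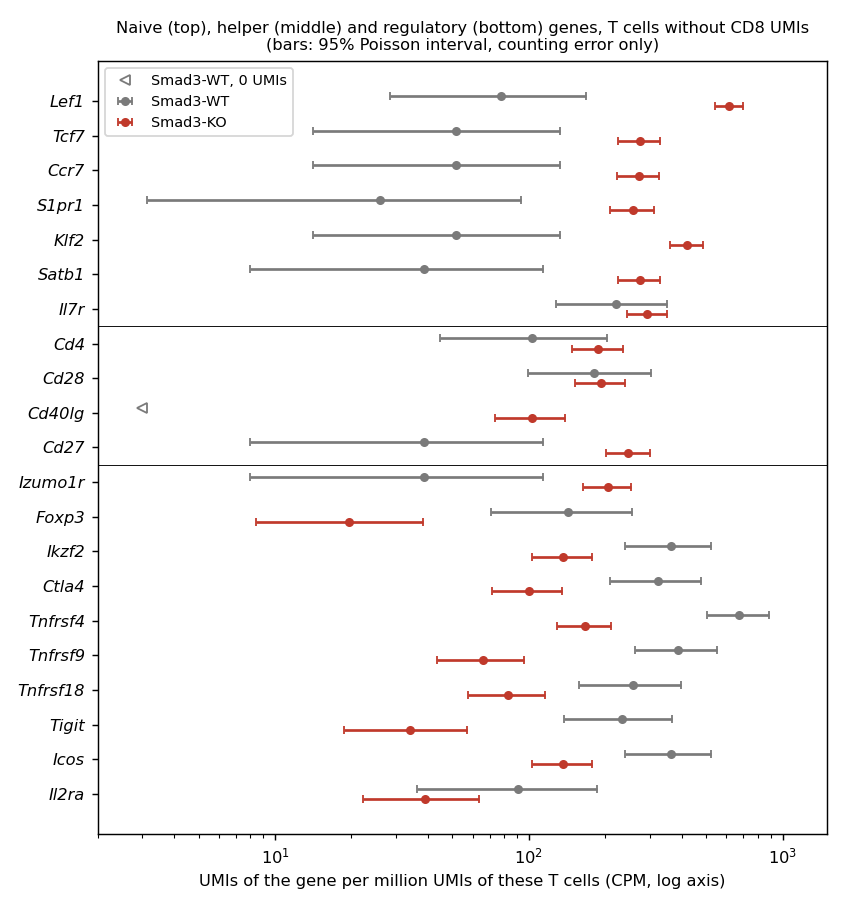
Level of 21 genes of the naive (top), helper (middle) and regulatory (bottom) lists in T cells without CD8 UMIs (x axis, CPM, log scale), with 1 point per library and bars for the 95% Poisson interval. Smad3-KO lies to the right for Lef1, Tcf7, Ccr7, S1pr1, Klf2 and Satb1 and to the left for Foxp3, Ikzf2, Ctla4, Tnfrsf4 and Tnfrsf9, and an open triangle marks Cd40lg at 0 UMIs in Smad3-WT.

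Genes of helper cells were split. Cd4 (ENSMUSG00000023274, chr6:124864692-124888221, minus strand, mm10), the helper coreceptor, had 8 UMIs in 4 of 17 Smad3-WT cells (23.5%, 6.81 to 49.9) and 77 UMIs in 63 of 267 Smad3-KO cells (23.6%, 18.6 to 29.2). At 500 UMIs per cell the expected shares were 3.18% and 9.89%. Its levels of 103 and 188 CPM gave a ratio of 1.82 (0.878 to 4.36), so a difference in Cd4 was not detectable at this depth. Cd4 had a UMI in 8 of 896 neutrophils and 1 of 417 B cells of the Smad3-KO library.

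Cd40lg, through which helper cells activate B cells and dendritic cells, had no UMI in Smad3-WT but 42 UMIs in 36 Smad3-KO cells, a level at least 2.64-fold higher against the floor. Cd27, a costimulatory receptor of naive cells, stood at 38.7 and 246 CPM, a ratio of 6.36 (2.12 to 31.4). Icos and Tnfrsf4 (OX40), receptors that rise on activated and regulatory cells, were lower in Smad3-KO, at 361 and 137 CPM for Icos and 671 and 166 CPM for Tnfrsf4. Of the 6 genes of this list, 2 were thus higher and 2 lower, and Cd4 and Cd28 were past the fold in neither direction. Without the mixed barcodes, Cd27 had a ratio of 3.09 (0.833 to 25.9) and did not pass the fold. Cd40lg could then not be placed, since its level in Smad3-KO (41 UMIs) lay under the level that 0 UMIs in 9 Smad3-WT cells allows.

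Genes of polarized helper cells were sparse. The cytokine genes Il17a, Il22, Il5 and Il13 had 0 UMIs in both libraries, Il4 and Il17f had 1 UMI each in Smad3-KO, and Ifng had 2 UMIs in 1 Smad3-KO cell. A count of 0, taken to allow 3 cells, limits the cells with a UMI to 1.12% of 267 and 17.6% of 17, and does not limit the cells that express these genes. Tbx21, the factor of Th1 cells, had 2 and 5 UMIs. Gata3, the factor of Th2 cells, which other T cells also express, had a UMI in 5 Smad3-WT and 28 Smad3-KO cells, with a ratio of 1.10 (0.419 to 3.63). Cytokine genes of Th1, Th2 or Th17 cells were thus barely detectable at this depth.

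Maf and Rora were lower in Smad3-KO, and some Tfh genes higher. Maf, a factor of several effector and regulatory states, stood at 490 CPM in Smad3-WT and 95.1 CPM in Smad3-KO, a ratio of 0.194 (0.121 to 0.311). Maf was also counted in 67.9% of Smad3-WT macrophages, and without the mixed barcodes its ratio was 0.340 (0.141 to 0.992). Rora, a nuclear receptor of Th17 and regulatory cells, stood at 168 and 21.9 CPM, a ratio of 0.131 (0.0493 to 0.331). In the Tfh list, Sh2d1a, the adaptor SAP, stood at 25.8 and 146 CPM (ratio 5.67, 1.50 to 47.9), Tox at 25.8 and 100 CPM (3.87, 1.01 to 33.0), and Cxcr5 had 0 and 3 UMIs. None of the Tfh genes passed the fold without the mixed barcodes, with Sh2d1a at 3.65 (0.629 to 146) and Tox at 1.24 (0.320 to 10.6), and Rora fell under 20 UMIs. In cells without any UMI of 9 genes of other cells, of which only 4 were Smad3-WT, Maf turned to 1.18 and Tox to 0.687. The Tfh genes past the fold, Cd40lg, Sh2d1a and Tox, are shared with other T cells.

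Regulatory genes marked a large part of the few Smad3-WT cells and a small part of the Smad3-KO cells. Foxp3 (ENSMUSG00000039521, chrX:7573644-7595245, plus strand, mm10), the factor that defines regulatory T cells, had 11 UMIs in 7 of 17 Smad3-WT cells (41.2%, 18.4 to 67.1) and 8 UMIs in 7 of 267 Smad3-KO cells (2.62%, 1.06 to 5.33). At 500 UMIs per cell the expected shares were 11.1% and 0.961%, and without the mixed barcodes the counts were 4 of 9 and 7 of 258. Foxp3 had no UMI in the 896 neutrophils, 417 B cells and 106 CD8 T cells of the Smad3-KO library, and 1 UMI in the 364 Smad3-WT macrophages. The intervals of the shares did not overlap, and neither did those of the levels, at 142 CPM (70.9 to 254) and 19.5 CPM (8.42 to 38.4). With 19 UMIs in all, Foxp3 fell below the 20 UMIs set for a ratio.

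Tnfrsf4 (ENSMUSG00000029075, chr4:156013843-156016612, plus strand, mm10) had a UMI in 12 of 17 and 23 of 267 cells, with 52 and 68 UMIs in Smad3-WT and Smad3-KO, at a ratio of 0.247 (0.170 to 0.362). Ikzf2 (Helios), a factor of regulatory cells, had a UMI in 9 and 30 cells, a ratio of 0.378 (0.236 to 0.618). Ctla4, the inhibitory receptor that competes with CD28, had a UMI in 8 and 18 cells, a ratio of 0.310 (0.184 to 0.532). All 3 genes were thus lower in Smad3-KO. The receptors Tnfrsf9 (4-1BB, ratio 0.170, 0.0972 to 0.296), Tnfrsf18 (GITR, 0.321, 0.180 to 0.589) and Tigit (0.147, 0.0676 to 0.313) were lower as well.

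Of the 15 regulatory genes, 9 had 20 UMIs, 7 of these were lower, and 1, Izumo1r, was higher, with a median ratio of 0.318. Izumo1r, a member of the folate receptor family, stood at 38.7 CPM (3 UMIs, 3 cells) and 205 CPM (84 UMIs, 45 cells), at a ratio of 5.29 (1.75 to 26.2), which became 2.56 (0.688 to 21.5) without the mixed barcodes. The other 7 stayed lower without the mixed barcodes, with a median ratio of 0.138 over the list against 0.853 over all genes. When the deepest remaining Smad3-WT cell, which held 41 of the 134 regulatory UMIs, was left out too, 6 of 7 genes with 20 UMIs were lower and the summed ratio was 0.164 (0.131 to 0.207). Tnfrsf9 was also counted in 15.9% of Smad3-WT macrophages, while Foxp3, Ctla4 and Icos each had a UMI in 1 of the 364. Among the CD8 T cells, 4 of the 4 regulatory genes with 20 UMIs were lower in Smad3-KO, namely Tigit, Tnfrsf18, Tnfrsf4 and Tnfrsf9, against a background of 12.3% of 2533 genes.

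The naive and regulatory genes were set against each other cell by cell. At least 3 of the 15 regulatory genes had a UMI in 12 of 17 Smad3-WT cells (70.6%, 44.0 to 89.7) and in 31 of 267 Smad3-KO cells (11.6%, 8.03 to 16.1). At least 3 of the 11 naive genes had a UMI in 9 of 17 (52.9%, 27.8 to 77.0) and 170 of 267 cells (63.7%, 57.6 to 69.4). Sampled down to 500 UMIs, a cell was expected to show 0.453 naive and 1.57 regulatory genes in Smad3-WT, and 1.52 naive and 0.380 regulatory genes in Smad3-KO. At 500 UMIs per cell the order of the lists was thus opposite in the libraries. Cells with 3 or more genes of each list numbered 6 in Smad3-WT and 9 in Smad3-KO, and 168 Smad3-KO cells had no regulatory gene at all.

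**Figure D3:**
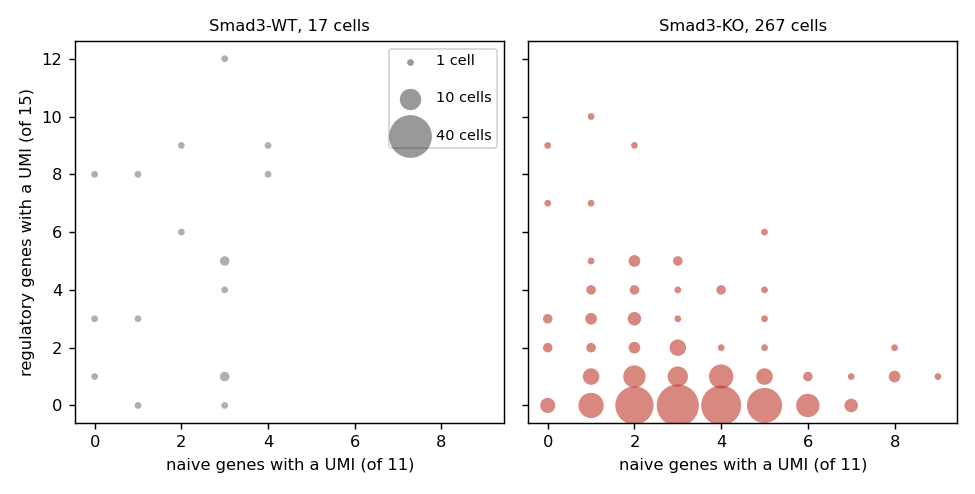
Number of naive genes (x axis, of 11) and regulatory genes (y axis, of 15) with a UMI in each T cell without CD8 UMIs, with the area of a point in proportion to the number of cells, for Smad3-WT (left) and Smad3-KO (right). Most Smad3-KO cells lie along the bottom, with 168 of 267 at no regulatory gene, while 12 of 17 Smad3-WT cells lie at 3 or more; depth is not equalized here.

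Some regulatory genes were counted more often in the Smad3-KO cells with Foxp3. Of the 7 cells with Foxp3, 6 had Ikzf2, 6 had Tnfrsf4 and 6 had Izumo1r, against 24, 17 and 39 of the 260 cells without Foxp3. Of the same 7 cells, 3 had Ctla4, 3 had Icos, 3 had Il2ra, 2 had Tnfrsf9, 2 had Tigit and 1 had Cd4. Most cells with Ikzf2 or Tnfrsf4 had no Foxp3 UMI. Lef1 went the other way, with 2 of 7 cells (3.67 to 71.0%) against 146 of 260 (49.9 to 62.3%), though these intervals overlap. Izumo1r reached beyond the Foxp3 cells: of the 45 cells with Izumo1r, 6 had Foxp3, 17 had Ikzf2 and 21 had Lef1. In Smad3-WT, all 7 cells with Foxp3 had Ikzf2, Tnfrsf4 and Tnfrsf9, against 2, 5 and 3 of the 10 others. A cell with more UMIs shows more genes of every kind, so these counts are a description of cells within 1 library.

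Smad3-KO cells with and without a Cd4 UMI, a split made after the values were seen, were close in naive genes and differed in cytotoxic ones. Among the 63 Smad3-KO cells with Cd4, Lef1 had a UMI in 38 (60.3%, 47.2 to 72.4), against 110 of the 204 cells without it (53.9%, 46.8 to 60.9). The summed naive list had a ratio of 1.07 (0.941 to 1.22) between them. Ccl5, a chemokine of memory and cytotoxic T cells, stood at 141 CPM with Cd4 and 762 CPM without, a ratio of 0.185 (0.0997 to 0.317). Of 2828 genes, 2.26% were higher and 1.91% lower in the cells with Cd4, and of the 5 cytotoxic and NK receptor genes with 20 UMIs, 3 were lower, namely Ccl5, Gzma and Nkg7, where Gzma rests on 1 cell that held 88 of its 89 UMIs. Izumo1r was higher in the cells with Cd4, at 353 and 158 CPM, a ratio of 2.24 (1.41 to 3.53). Tnfrsf4 was lower, at 60.5 and 199 CPM, a ratio of 0.303 (0.107 to 0.698). Macrophage or monocyte markers were lower with Cd4 as well, at 1219 and 2013 CPM (0.606, 0.494 to 0.737). Dendritic cell markers were higher, at 2509 and 1717 CPM (1.46, 1.25 to 1.70). The part of these markers in the other ratios was not tested.

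Gamma-delta constant genes were counted in few cells. Trdc, the delta chain constant gene, had 0 UMIs in Smad3-WT and 10 UMIs in 7 Smad3-KO cells (2.62%, 1.06 to 5.33). Together with the Tcrg constant genes, 1 Smad3-WT and 8 Smad3-KO cells (2.996%, 1.30 to 5.82) had a UMI, against 0 of 106 Smad3-KO CD8 T cells. NK cells, chosen without Cd3 UMIs, held such UMIs too. The Smad3-WT library had 3 NK cells with them out of 11 (5 UMIs), and the Smad3-KO library 1 out of 3 (1 UMI). A UMI of these constant genes is therefore not particular to T cells. Each of the 9 T cells with such a UMI also had from 1 to 14 UMIs of Trac, Trbc1 or Trbc2, which count toward the rule. Gamma or delta variable genes had 3, 5, 3 and 8 UMIs in 4 of the 8 Smad3-KO cells. Over all Smad3-KO cells, gamma variable genes had 24 UMIs in 7 cells and delta variable genes 13 UMIs in 6. At this depth even Trac was counted in 101 of 267 cells, so these counts do not limit how many gamma-delta T cells there were. Sox13, Cd163l1 and 5830411N06Rik, further genes of gamma-delta cells, were at 0 in both libraries. Among the 8 Smad3-KO cells, 4 had Nkg7 and 0 had Cd4. Zbtb16, the factor of innate-like T cells such as NKT cells, was at 0 in both libraries, and Trav11, the alpha chain segment of invariant NKT cells, had 1 UMI in Smad3-KO.

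The alpha-beta variable genes were spread over many segments. In Smad3-KO, 21 of the 35 Trbv genes of the matrix had a UMI, with Trbv13-2 in 35 of 267 cells (13.1%, 9.30 to 17.8), Trbv16 in 18, Trbv13-1 in 17, Trbv3 in 16 and Trbv15 in 15. No Trbv gene was seen in 79 cells, 1 in 157 cells and 2 or more in 31 cells. Of the 128 Trav genes 58 had a UMI, and the most frequent, Trav14-1 and Trav6-7-dv9, were each in 10 cells (3.75%, 1.81 to 6.78). In Smad3-WT, 11 Trbv genes had a UMI, each in 1 cell. No segment thus dominated, and since segments resemble each other, reads may be split between near copies. Both Trbc1 and Trbc2 had UMIs in 51 of 267 Smad3-KO and 5 of 17 Smad3-WT cells.

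A list of 8 cytotoxic genes had a UMI in 11 of 17 Smad3-WT cells, at 1884 CPM, and in 45 of 267 Smad3-KO cells, at 1104 CPM (ratio 0.586, 0.485 to 0.711). The longer list of cytotoxic and NK receptor genes stood at 5227 and 1846 CPM (0.353, 0.313 to 0.399), but Fcer1g and Tyrobp gave 241 of its 405 Smad3-WT UMIs, and 886 of 896 Smad3-KO neutrophils had a UMI of it. Nkg7, a granule protein of cytotoxic and NK cells, had a UMI in 2 cells of Smad3-WT and 20 of Smad3-KO, at 116 and 107 CPM (ratio 0.924, 0.445 to 2.15). Ccl5 had a UMI in 8 and 21 cells, at 1381 and 612 CPM (0.443, 0.352 to 0.561). Gzmb, granzyme B, had 15 UMIs in 6 cells and 7 UMIs in 4 cells (0.0882, 0.0304 to 0.230). Gzma, granzyme A, had no UMI in Smad3-WT and 89 in Smad3-KO, of which 88 lay in 1 cell. Of the 19 cytotoxic and NK receptor genes 8 had 20 UMIs, 1 of them higher (Gzma) and 5 lower (Ccl5, Fcer1g, Gzmb, Klrd1 and Tyrobp), and the median ratio was 0.348. Fcer1g and Tyrobp, which belong to the 5, are also neutrophil and macrophage genes, and without the mixed barcodes their ratios were 1.63 (0.537 to 8.06) and 3.52 (0.607 to 142), on 3 and 1 Smad3-WT UMIs and with intervals that held 1. Of the 5 genes that then had 20 UMIs, Ccl5 was lower (0.411, 0.283 to 0.617) and 0 were higher, with a median ratio of 1.40, while Gzmb and Klrd1 fell under 20 UMIs. Of 6 defining NK markers, 3 were at 0 in each library, and their summed level was 155 CPM (12 UMIs) in Smad3-WT and 12.2 CPM (5 UMIs) in Smad3-KO.

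Genes of the TGF-beta pathway had 42 UMIs in 12 Smad3-WT and 350 UMIs in 175 Smad3-KO cells. Tgfbr2, the receptor that binds TGF-beta, was counted in 2 and 80 cells, at 38.7 CPM (3 UMIs) in Smad3-WT and 236 CPM (97 UMIs) in Smad3-KO, a ratio of 6.11 (2.03 to 30.1). It was the only gene past the fold of the 6 with 20 UMIs out of 13. It is also counted in 30.5% of Smad3-WT macrophages. Without the mixed barcodes it had 0 and 91 UMIs, at least 1.87-fold higher against the floor, and 0 genes of the list passed the fold. Tgfb1, the ligand, stood at 258 and 178 CPM (0.690, 0.416 to 1.19), and Smad7, the inhibitory SMAD that TGF-beta induces, at 25.8 and 95.1 CPM (3.68, 0.954 to 31.5). Smad2 had 2 and 13 UMIs and Smad4 1 and 23. Smad3 itself was counted 16 times in 14 Smad3-KO cells and in no Smad3-WT cell. Tags from a 5′ kit may come from before the deleted part of a gene, and these counts are no check of genotype.

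Of 15 migration genes 11 had 20 UMIs, with Ccr7, S1pr1 and Itgal higher and Ccr2 lower, at 529 and 70.7 CPM (0.134, 0.0801 to 0.220). Ccr2, a monocyte receptor also used by regulatory cells, was counted in 51.1% of Smad3-WT macrophages, and the summed migration list had a ratio of 1.03 (0.877 to 1.22). The cell cycle list stood at 1433 and 785 CPM (0.548, 0.440 to 0.686), and without the mixed barcodes at 0.257 (0.199 to 0.335), where 71 of the 76 Smad3-WT UMIs lay in 1 cell. When that cell was left out too, the ratio turned to 2.31 (0.982 to 7.18), so the difference rests on 1 Smad3-WT cell. Over all cells, 89 of its 322 Smad3-KO UMIs also lay in 1 cell. Of 6 genes 1, Ube2c, passed the fold, against 3 of 4 (Hmgb2, Pclaf and Stmn1, all lower) without the mixed barcodes and 0 of 3 without that Smad3-WT cell as well. Its proliferation marker Mki67 was counted in 2 and 4 cells. Immediate early and stress genes had 4 of 8 lower, namely Fos, Jun, Egr1 and Dusp1, and their summed ratio went from 0.544 (0.472 to 0.628) to 1.05 (0.748 to 1.51) without the mixed barcodes. Interferon-stimulated genes stood at 3549 and 3854 CPM (1.09, 0.955 to 1.24), with Ifit1 as the only gene of 8 past the fold. Without the mixed barcodes Ifit1 did not pass it and Isg15 was higher. Activation and inhibitory receptor genes had 3 higher (Cd69, Tox and Nfatc1) and 3 lower (Cd44, Ctla4 and Tigit) of 6. Of 12 T cell signalling genes 6 were higher, among them Lat, Lck, Prkcq, Skap1 and Thy1, and this count became 1 (Lat) without the mixed barcodes. Without them no migration gene passed the fold, and of the activation genes only Ctla4 and Tigit, both lower.

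**Figure D4:**
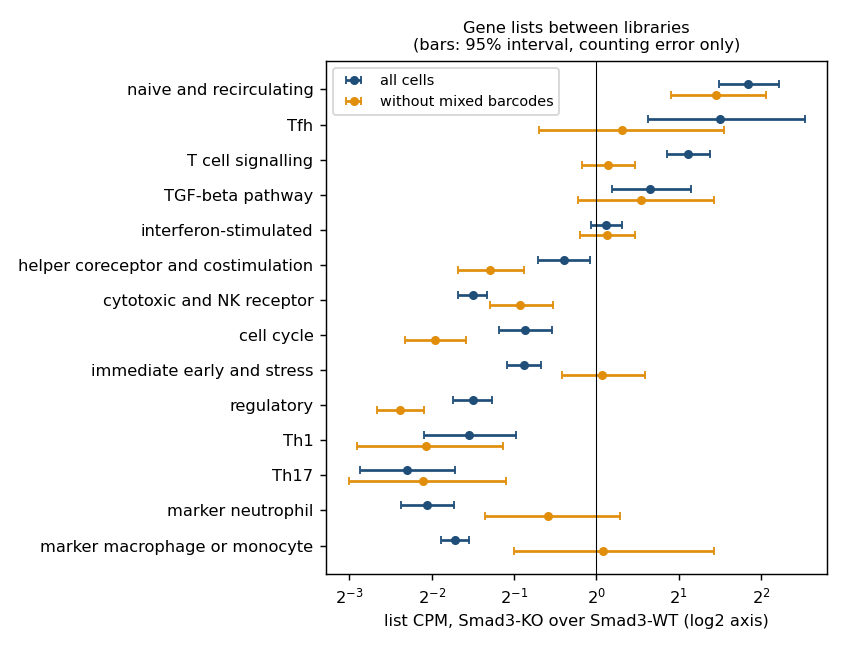
Summed level of 14 gene lists in T cells without CD8 UMIs, Smad3-KO over Smad3-WT (x axis, ratio of CPM, log2 scale; bars for the 95% interval), for all cells and without the mixed barcodes. Naive genes stay above 1 (3.59 and 2.75) and regulatory genes below 1 (0.353 and 0.192) in both, while macrophage markers move from 0.303 to 1.06 and immediate early genes from 0.544 to 1.05.

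Genes with at least 50 UMIs were also ordered by their ratio. The 10 lowest ratios of Smad3-KO over Smad3-WT belonged to Ppbp, Mmp12, Mt3, Ccl7, Ccl2, Pf4, Ccl6, Cxcl3, Spp1 and H2-Eb1, most of which are genes of macrophages or platelets, and 8 of them had under 20 UMIs without the mixed barcodes. The 10 lowest were then Odc1, Mdh1, Tnfrsf4, Gapdh, Ctla4, Hif1a, Cmtm7, AW112010, Icos and S100a4, none of which is among the first 10. The deepest remaining Smad3-WT cell held 14 of the 18 Smad3-WT UMIs of Mdh1, 11 of 19 of Cmtm7 and 78 of 155 of Gapdh. When it was left out too, Tnfrsf4, Hif1a, Icos, AW112010, Ctla4 and Gapdh were again among the 10 lowest, with Cd82, Sdf4, H2-T22 and S100a11. The 10 highest were Gm3839, Xist, Gzma, Gm10260, Trbv16, Itpkb, Igfbp4, Dgka, Ripor2 and Prkcq. Itpkb, a kinase of T cell receptor signalling, had 0 and 55 UMIs, and Igfbp4, which naive T cells express, had 4 and 275 UMIs (ratio 12.99, 5.02 to 48.0). Dgka, a kinase that dampens T cell receptor signals, had 2 and 150 UMIs (14.2, 3.85 to 118). Without the mixed barcodes, Dgka had a ratio of 9.08 (1.61 to 361), Igfbp4 had 0 and 272 UMIs and still passed the fold, and Itpkb did not. The 10 highest were then Gm3839, Igfbp4, Xist, Gm47283, Klf2, Ccl4, Cxcl2, Lcn2, Jak1 and Slpi, of which Cxcl2 (24.2, 4.32 to 959), Lcn2 (0 and 118 UMIs) and Slpi (0 and 105 UMIs) are also genes of neutrophils and other myeloid cells. Gm3839 had 0 and 408 UMIs while Gapdh had 552 and 386, and the split of reads between genes and their copies is uncertain for Gm3839 and Gm10260.

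The genes with most UMIs, after mitochondrial and ribosomal protein genes, were housekeeping genes in both libraries. In Smad3-WT they were Fth1, Ftl1, Tmsb4x, Tmsb10, Gapdh, Actg1, Actb, Fau, Gm10076 and Eef1a1, and in Smad3-KO they included Tmsb10, Tmsb4x, Eef1a1, Fau, Gm10076, Gm42418, Tpt1, Fth1 and Actb. Ferritin genes, which macrophages express at high levels, led the Smad3-WT list, with 1162 UMIs of Fth1 and 872 of Ftl1.

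Against the CD8 T cells of the same library, the Smad3-KO cells stood out by helper and regulatory genes. This comparison shares host, library and sort, and its median depths were 1289 and 1846.5 UMIs. The absence of Cd8a and Cd8b1 was set by the rule. Of 4316 genes, 3.52% were higher and 2.53% lower. Cd4 had 77 UMIs in 63 of 267 cells and 6 UMIs in 5 of 106 CD8 T cells, a ratio of levels of 8.08 (3.55 to 22.7). Tnfrsf4 had 68 UMIs and 2 UMIs (21.4, 5.70 to 180), Izumo1r 84 and 8 (6.61, 3.21 to 15.8), and Cd40lg 42 and 1 (26.4, 4.49 to 1069). Each was thus counted in only a few CD8 T cells.

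All 7 regulatory genes with 20 UMIs were higher than in CD8 T cells, namely Ctla4, Icos, Ikzf2, Izumo1r, Tnfrsf18, Tnfrsf4 and Tnfrsf9, with a median ratio of 4.75 against 1.05 over all genes. Of 6 helper genes 5 were higher (Cd4, Cd28, Cd40lg, Icos and Tnfrsf4), and Cd27 was not (1.22, 0.867 to 1.74). Maf stood at 95.1 and 11.6 CPM (8.19, 2.60 to 41.4) and Gata3 at 70.7 and 23.2 CPM (3.04, 1.24 to 8.97). The Foxp3 counts were 8 UMIs and 0.

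The naive list differed little between these classes. Lef1 was at 617 and 314 CPM (1.97, 1.53 to 2.56), under the fold, and Tcf7 at 273 and 182 CPM (1.50, 1.06 to 2.16). The summed list had a ratio of 1.25 (1.14 to 1.38), Bach2 was higher (2.88, 1.25 to 7.73), and Dapl1, a gene of naive CD8 cells, was lower at 92.6 and 228 CPM (0.406, 0.262 to 0.620). Of 10 cytotoxic and NK receptor genes with 20 UMIs, 6 were lower, namely Ccl5, Ctsw, Gzmb, Klrc1, Klrd1 and Nkg7. Nkg7 had a UMI in 20 of 267 and 55 of 106 cells, at 107 and 507 CPM (0.211, 0.147 to 0.300). Cxcr3, Cxcr6 and Il18r1, receptors of effector and memory cells, were lower as well, at 0.245, 0.270 and 0.275.

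**Figure D5:**
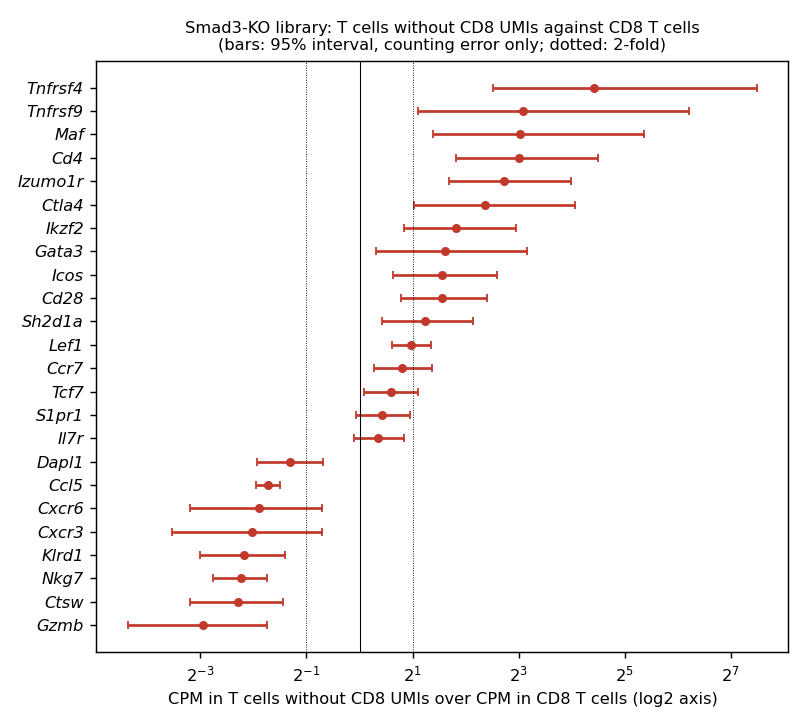
Level of 24 genes from the lists in 267 T cells without CD8 UMIs over 106 CD8 T cells of the Smad3-KO library (x axis, ratio of CPM, log2 scale; bars for the 95% interval; dotted lines at 2-fold). Tnfrsf4, Maf, Cd4 and Izumo1r lie to the right, naive genes such as Tcf7 and S1pr1 near 1, and Nkg7, Ctsw and Gzmb to the left.

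Among all genes with at least 50 UMIs, the 10 highest ratios to CD8 T cells were those of Tnfrsf4, Cd4, Izumo1r, Clec4e, Thbs1, Ly6c1, Tspan32, Trbv16, Apoe and Ikzf2. Clec4e, Thbs1 and Apoe are genes of myeloid cells, with 95, 64 and 268 UMIs. Macrophage markers were at 1821 CPM here and 1510 CPM in the CD8 T cells, and their part in these ratios was not tested. Besides Cd8b1 and Cd8a, the lowest were Fscn1, H2-Aa, Ctsw, Nkg7, Cst3, Klrd1, Cd74 and Ctsh. The class II genes H2-Aa and Cd74 belong to the dendritic cell list, which stood at 1909 CPM here and 8178 CPM in the CD8 T cells, and whose part in these low ratios was not tested. Fibroblast markers stood at 14.6 and 190 CPM, carcinoma markers at 4.88 and 11.6 CPM, neutrophil markers at 451 and 709 CPM and B cell markers at 207 and 252 CPM.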

How the data were processed

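The authors aligned the reads of both 5′ libraries with Cell Ranger 3.0.2 to mm10, per the labels, and the deposited matrix holds raw UMI counts for 31053 genes. The deposited table of averages, a signal per gene and genotype, served only to tell which barcode suffix belonged to which genotype (largest differences 3.58e-08 and 4.91e-09). Columns of the authors' own fold changes and p-values between libraries and clusters were not used.

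Cell types came from the stated limits and not from clusters, no doublet caller was run, and no upper limit on UMIs was set. UMIs were summed over cells and divided by all their UMIs, as CPM. Levels carry exact Poisson intervals, shares Clopper-Pearson intervals and ratios exact conditional binomial intervals. Shares at 500 UMIs are hypergeometric expectations, and no cell was left out by them. A fold against 0 UMIs uses 3 UMIs over the group. In data simulated as independent Poisson counts, 200 of 3443 genes were changed 4-fold between the libraries. There 97.1% of intervals held the fold, 96.5% of changed genes were past the fold, and so were 2.04% of unchanged genes. The intervals assume this same kind of count. The simulation had no mixed barcodes and no UMIs gathered in single cells, so these values are not error rates of the real counts.

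Named are genes of 20 gene lists and 10 marker lists, the 10 highest and lowest ratios of genes with 50 UMIs, the 10 genes with most UMIs and the 5 most frequent variable genes of each chain. Other genes were chosen after their values were seen. The cells and lists were chosen with earlier results of these data known. The work used pandas 2.3.3, scipy 1.17.1 and numpy 2.4.6 under Python 3.11.15, with figures from matplotlib 3.10.9. Positions are from the GENCODE annotation of the same build. Some genes of the lists are not reported here.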

Additional observations from a re-analysis of the deposited data

How the results depend on the processing

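No paired analysis was possible because each genotype had 1 library, and no replicate could be left out. Of the main results under each alternative, 138 values stayed within counting error of the reported one, 43 moved beyond it and 1 turned. Of the single genes, 2236 values stayed, 165 moved and 25 turned. These counts include a setting with fewer than 20000 UMIs per cell, which kept the same 17 and 267 cells. The deepest of the Smad3-KO CD8 T cells had 18606 UMIs. The ratios and gene shares of that setting therefore could not change, and they add to the values that stayed. Except where a setting's own construction changes the cells or the depth, the cause was not tested. The setting without barcodes of 10 or more macrophage or monocyte UMIs was chosen after seeing the data and leaves 9 Smad3-WT and 258 Smad3-KO cells. A setting without any UMI of 9 genes of other cells leaves 4 and 199 cells, so its Smad3-WT values rest on 4 cells. Leaving out the mixed barcodes and the deepest remaining Smad3-WT cell was also chosen after seeing the data.

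The Smad3-WT share of 0.436% became 0.103% without UMIs of the 9 genes and 0.231% without mixed barcodes. The Smad3-KO share of 10.97% became 7.03% with at least 5 T cell receptor and CD3 UMIs, 13.3% with no limits on other cell types and 8.18% without UMIs of the 9 genes. At 500 UMIs per cell, the shares of Smad3-WT cells were 3.90% for Lef1, 3.18% for Cd4 and 11.1% for Foxp3, and those of Smad3-KO cells 28.6%, 9.89% and 0.961%. With at least 2 UMIs required, Foxp3 was in 17.6% of Smad3-WT cells, and Lef1, Cd4 and Foxp3 were in 26.2%, 3.75% and 0.375% of Smad3-KO cells. Without UMIs of the 9 genes, Lef1 and the gamma-delta constant genes were in 0 Smad3-WT cells.

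Between libraries, the naive ratio of 3.59 became 2.75 without mixed barcodes. The helper ratio of 0.761 turned to 1.03 with no limits on other cell types, and was 0.409 without mixed barcodes and 0.504 as a mean of CPM over cells. The regulatory ratio of 0.353 was 0.501 with no limits, 0.227 without UMIs of the 9 genes, 0.192 without mixed barcodes, 0.216 as a mean over cells and 0.429 without mitochondrial and ribosomal protein genes in the total. The cytotoxic ratio of 0.353 was, in the same order, 0.450, 0.595, 0.528, 0.229 and 0.429, with 0.413 at 5 T cell receptor and CD3 UMIs and 0.274 without cells holding Trdc, Ncr1, Klrb1c or Klre1. Against CD8 T cells, the naive ratio of 1.25 was 1.12 at 5 such UMIs, 1.13 with no limits and 1.42 without UMIs of the 9 genes. The cytotoxic ratio of 0.432 was 0.611 with no limits, 0.340 without UMIs of the 9 genes, 0.342 without mixed barcodes, 0.325 without Trdc, Ncr1, Klrb1c or Klre1 and 0.311 as a mean over cells.

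Single genes that turned between libraries were Cd3e (0.601 without UMIs of the 9 genes, 0.693 without mixed barcodes, 0.962 as a mean over cells) and Thy1 (0.893 and 0.931 under the first and second of these). Without UMIs of the 9 genes, Ccr7 turned to 0.981, Maf to 1.18, Tox to 0.687 and Junb to 1.04. Without mixed barcodes, Fcer1g turned to 1.63, Tyrobp to 3.52, Jun to 1.73 and Dusp1 to 1.15. As a mean over cells, Ifi27l2a turned to 0.984. Without mixed barcodes and the deepest remaining Smad3-WT cell, the naive ratio was 2.32, the helper ratio 0.318 and the regulatory ratio 0.164, and Cd3e turned to 0.569, Cd3d to 0.793, Cd3g to 0.730, Tyrobp to 2.09, Cd69 to 0.861, Hmgb2 to 1.42, Ifi27l2a to 0.750 and Dusp1 to 1.03. Against CD8 T cells, Gzma turned to 1.09 without UMIs of the 9 genes, Stmn1 to 0.947 as a mean over cells and Hmgb2 to 1.09 with no limits.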

Other observations

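Among interferon-stimulated genes, 1 of 8 was past the fold between the T cells without CD8 UMIs and the CD8 T cells of the Smad3-KO library. It was Ifi27l2a, which interferons induce, with a ratio of 2.49, and it held 1061 of the 1581 UMIs of the list in the former. The list stood at 3854 and 1994 CPM in these classes, with a median ratio of 1.50, and at 2625 CPM in B cells and 4714 CPM in neutrophils of that library.

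The Tfh list went opposite ways between the libraries in the classes of T cells. Its ratio of Smad3-KO over Smad3-WT was 2.83 (1.54 to 5.79) in T cells without CD8 UMIs and 0.222 (0.149 to 0.328) in CD8 T cells, where Pdcd1 and Sh2d1a were lower. Without the mixed barcodes the first ratio was 1.24 (0.616 to 2.93), and the difference between the classes was not tested.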
